A study of Mus musculus with 20 samples.

Results

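Potassium channel genes were followed through a glutamate pulse in cultured mouse hippocampal neurons. The set held every gene of the counts table whose symbol begins with Kcn, without the noncoding Kcnq1ot1, and numbered 97 genes of 24419. Of these, 76 passed the expression filter, which 14411 genes passed in all, and the other 21 were too low to test. The 4 groups of 5 polyadenylated RNA libraries came from C57BL6 hippocampi of embryonic day 18, pooled from 4 embryos, and all had been kept to day 10 in vitro in Neurobasal medium with B27 and had received 4 µM cytosine arabinoside, which kills dividing cells, from day 3 to day 6. The glutamate + TPA group (below, TPA) had 1 min in 10 µM tris(2-pyridylmethyl)amine, a zinc chelator, and then 50 µM glutamate with the chelator for 2 min. The glutamate + zinc group (zinc) had 50 µM glutamate with 10 µM ZnCl2, the glutamate group had 50 µM glutamate alone, and the control group had imaging medium alone, each for 2 min. RNA was taken 90 min after the pulse, and no group analysed here had zinc or the chelator without glutamate.

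Potassium channels let potassium leave the neuron, hold the resting potential, end each spike and set how readily the next follows. A channel is built of pore-forming subunits, which may open with voltage (Kv), with calcium or sodium, or at rest (inward rectifiers and tandem-pore leak channels), and its traffic and gating are tuned by accessory subunits. In hippocampal neurons their transcription and surface level are known to be adjusted by activity, and several channel proteins are known to be sensitive to zinc itself.

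Library totals were 28692470 to 38767979 counts with TPA, 33445137 to 38435627 with zinc, 35559330 to 40934630 with glutamate and 36106575 to 39765787 in control. A count of 3 equals 0.105 CPM (counts normalised for library size) in the smallest library and covers counting error only. Summed TPM (a level per gene length) of 6 neuronal markers was 4910 to 5260 with TPA, 4740 to 5450 with zinc, 4710 to 5220 with glutamate and 4940 to 5250 in control. Summed TPM of 6 astrocyte markers was 243 to 292, 248 to 297, 261 to 309 and 262 to 313 in the same order, and that of 5 microglial markers was at most 3.63 in any library. Of 8 immediate early genes, 6 rose with TPA, 1 with zinc and 2 with glutamate, each against control (edgeR quasi-likelihood test, adjusted p under 0.05). All 8 had a fold change above 0 in each comparison, with a median log2 of 0.925, 0.494 and 0.709 in that order. At an unadjusted p under 0.05 in the same test stood 8, 6 and 8 of them. Each group's 5 libraries are biological replicates per the labels. Tissue of several embryos was pooled before plating, so a p-value here reflects how far these libraries differ, which may not be how far animals differ.

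In control cultures 69 of the 97 channel genes stood at 1 TPM or more, 43 at 10 or more and 14 at 50 or more, while 14 lay under 0.1 TPM. The summed level of all 97 was 2168 ± 101.5 TPM with TPA, 2078 ± 46.2 TPM with zinc, 2163 ± 83.7 TPM with glutamate and 2188 ± 45.2 TPM in control (SD, n = 5 each). The 10 most abundant held 48.95% of the control sum. Bulk RNA cannot tell fewer cells of a type from less RNA per cell.

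**Figure D1:**
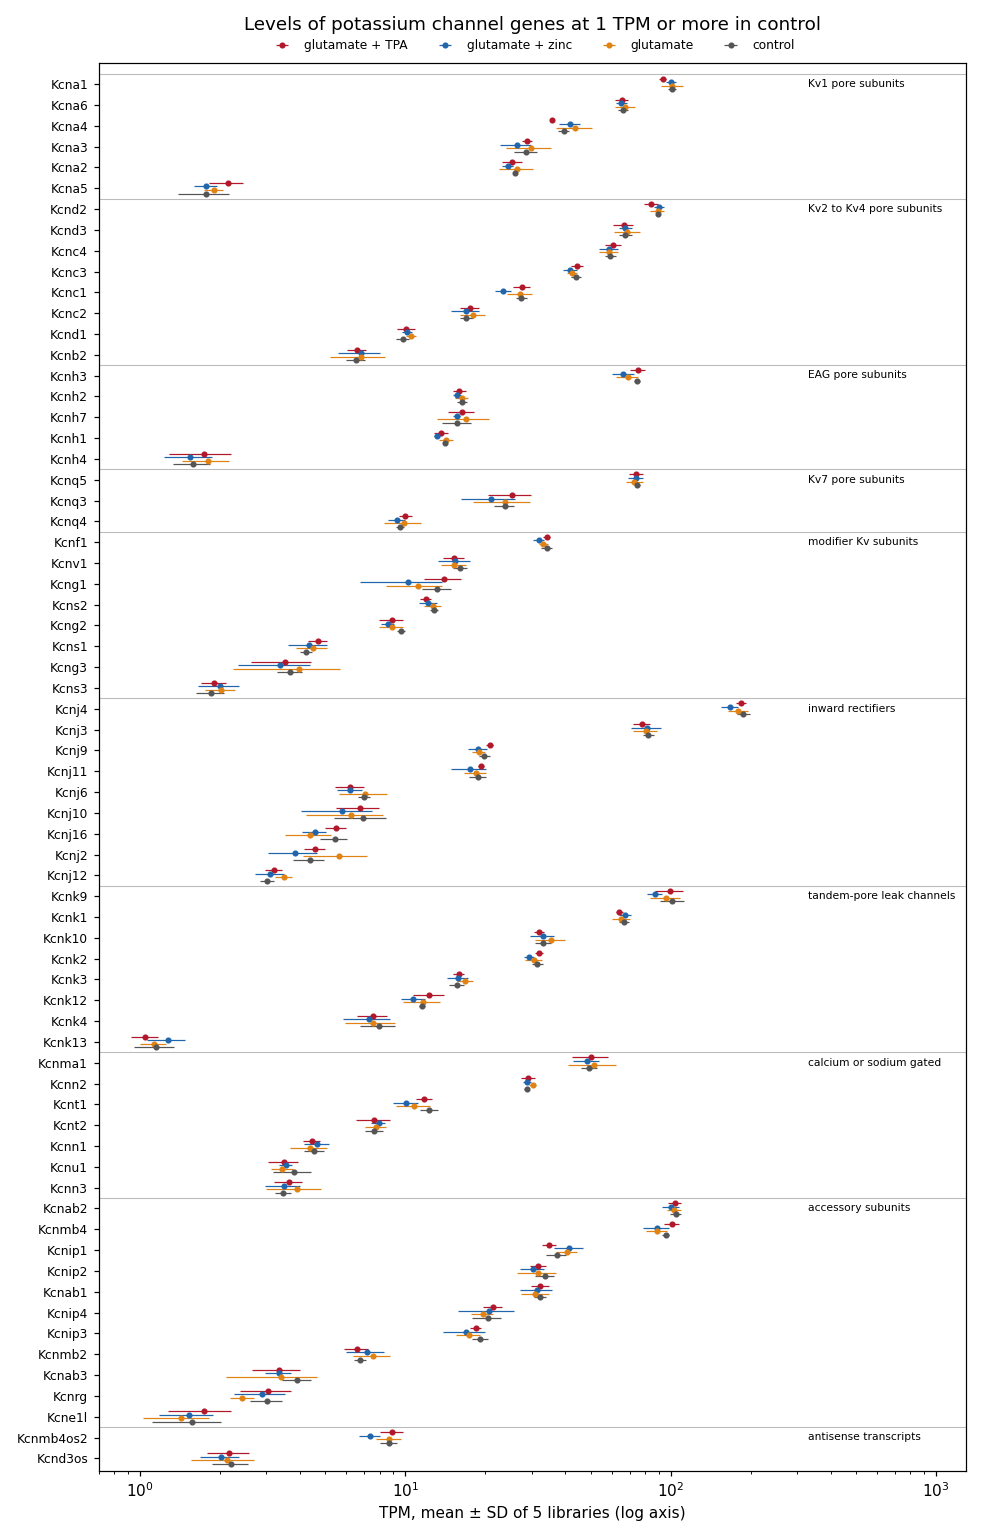
Level of 67 of the 69 genes at 1 TPM or more in control, as mean ± SD TPM of 5 libraries on a log axis, with TPA, zinc, glutamate and control from top to bottom in each row and genes grouped by role. Levels run from about 1 to 188 TPM between genes, while the 4 groups of a gene lie close together.

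Inward rectifiers, which pass potassium more easily inward and hold the resting potential, gave 15.4% of the control sum from 15 genes, of which 10 were tested. Kcnj4, which encodes a strong rectifier of the Kir2 class, was the most abundant channel gene at 184 ± 7.83 TPM with TPA, 167 ± 11.85 TPM with zinc, 179.7 ± 15.2 TPM with glutamate and 188 ± 10.7 TPM in control. Its relatives Kcnj2 and Kcnj12 were far lower, at 4.36 ± 0.576 and 3.02 ± 0.181 TPM in control. The Kir3 genes, whose channels open on G protein signals, were led by Kcnj3 at 82.4 ± 3.9 TPM in control, followed by Kcnj9 at 19.9 ± 0.982 TPM and Kcnj6 at 7.01 ± 0.381 TPM. Kcnj10, the channel by which astrocytes clear potassium, stood at 6.93 ± 1.53 TPM in control, and its partner Kcnj16 at 5.41 ± 0.632 TPM. Kcnj10 was uneven between libraries of the same group: its CPM was 9.1 to 15.1 with TPA, 6.5 to 14.3 with zinc, 7.08 to 16.9 with glutamate and 9.03 to 16.7 in control, wider than any difference between group means.

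Kv7 genes, whose channels carry the M current that muscarinic receptors close, gave 12.2% of the control sum from 5 genes. Among them Kcnq5 stood at 74.96 ± 1.76 TPM and Kcnq3 at 23.7 ± 2.1 TPM in control. Of the most abundant genes of other roles, Kcnab2 at 104.5 ± 4.96 TPM, Kcna1 at 101.5 ± 3.43 TPM and Kcnk9 at 101.5 ± 10.75 TPM in control, did not differ beyond their spread.

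The Kv1 genes, pore subunits of axonal channels, gave 12% of the control sum, led by Kcna1 and by Kcna6 at 66.1 ± 2.88 TPM. Kcna4, an inactivating (A-type) member of that class, stood at 39.5 ± 1.91 TPM, Kcna2 at 25.8 ± 0.434 TPM and Kcna5 at 1.78 ± 0.388 TPM in control. The Kv2 to Kv4 genes gave 16%. Among them Kcnd2, the main pore of the dendritic A-type current, stood at 89.9 ± 1.47 TPM and its relative Kcnd3 at 67.5 ± 3.87 TPM in control. Kcnc4 stood at 59.2 ± 2.83 TPM and Kcnc1, the fast-closing channel of fast-spiking interneurons, at 27.4 ± 1.33 TPM in control. EAG genes gave 5.72%, with Kcnh3 at 74.6 ± 2.04 TPM, Kcnh7 at 15.7 ± 1.955 TPM and Kcnh1 at 14.1 ± 0.148 TPM in control.

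Modifier Kv subunits, which form no channel alone and change the gating of Kv2 channels, gave 4.38% of the control sum. Kcnf1 stood at 34.1 ± 1.61 TPM, Kcnv1 at 16.1 ± 1 TPM, Kcng1 at 13.2 ± 1.61 TPM, Kcns2 at 12.8 ± 0.445 TPM and Kcng2 at 9.66 ± 0.346 TPM in control. Tandem-pore leak channel genes gave 12.3%, led by the acid-sensitive Kcnk9, with the stretch- and lipid-sensitive Kcnk2 at 31.5 ± 1.51 TPM. Genes of calcium- and sodium-gated channels and their close relatives gave 5.01%. These were led by Kcnma1, the large-conductance (BK) pore, at 49.2 ± 3.33 TPM, with the small-conductance Kcnn2 at 28.6 ± 0.668 TPM, the sodium-gated Kcnt1 at 12.3 ± 0.961 TPM and Kcnu1 at 3.81 ± 0.624 TPM in control.

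Accessory subunit genes gave the largest share among these roles, 16.4%. Kcnab2, a cytoplasmic partner of Kv1 channels, led, and Kcnmb4, the neuronal partner of the BK pore, stood at 95.7 ± 2.91 TPM in control. The Kv4 partners Kcnip1, Kcnip4 and Kcnip3 stood at 37.2 ± 3.175, 20.45 ± 2.54 and 19.2 ± 1.31 TPM in control. Kcnrg, which encodes a regulator that lowers Kv current, was at 3.01 ± 0.417 TPM and Kcne1l at 1.57 ± 0.46 TPM. Antisense transcripts gave 0.524%. The 21 genes too low to test reached at most 0.588 TPM in control (Kcnmb4os1), and Kcnj13, Kcnk16 and Kcnk18 were listed at 0 there.

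The sequence 250 bases upstream of the start is shown for 3 channel genes that lead the zinc and chelator comparisons below, with letters known from zinc and activity response in capitals. The motifs sought on both strands were TGACGTCA (cyclic AMP response element), its core TGACG, which lies inside it, TGAGTCA (AP-1), and TGCACNC and TGCGCNC, the core of metal response elements bound by the zinc sensor MTF-1. Sequences are from RefSeq (GRCm38.p6, the assembly of mm10), read 5′ to 3′ on the gene's strand, at chr7:46396218-46396467 (plus strand) for Kcnc1, chr11:111065914-111066163 (plus) for Kcnj2 and chr2:107290339-107290588 (plus) for Kcna4.
Kcnc1: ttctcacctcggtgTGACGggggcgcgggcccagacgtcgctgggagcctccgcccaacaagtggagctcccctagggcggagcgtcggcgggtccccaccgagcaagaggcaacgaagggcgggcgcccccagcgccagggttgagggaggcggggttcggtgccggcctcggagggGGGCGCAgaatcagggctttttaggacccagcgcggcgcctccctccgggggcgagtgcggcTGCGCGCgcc
Kcnj2: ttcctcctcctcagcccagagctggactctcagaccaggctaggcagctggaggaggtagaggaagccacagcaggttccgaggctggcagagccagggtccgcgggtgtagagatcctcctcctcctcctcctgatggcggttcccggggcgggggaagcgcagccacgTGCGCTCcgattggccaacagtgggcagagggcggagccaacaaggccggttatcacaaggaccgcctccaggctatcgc
Kcna4: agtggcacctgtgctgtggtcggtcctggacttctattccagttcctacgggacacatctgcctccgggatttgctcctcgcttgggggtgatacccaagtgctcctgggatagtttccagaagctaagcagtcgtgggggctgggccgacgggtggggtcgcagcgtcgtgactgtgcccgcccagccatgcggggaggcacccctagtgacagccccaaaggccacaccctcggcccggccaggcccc
Capitals in Kcnc1 mark TGACG at bases -236 to -232 from the start and TGCGCNC matches at -72 to -66 (reverse strand) and -10 to -4. In Kcnj2 they mark TGCGCNC at -80 to -74, and in Kcna4 none of the letters sought was found. Of 96 RefSeq promoters of 71 matched channel genes, 0 held TGACGTCA, 15.6% TGACG, 2.08% TGAGTCA (Kcnip3 and Kcnk2), 17.7% TGCACNC and 11.5% TGCGCNC. Over all 32851 promoters the shares were 1.55%, 17.8%, 4.46%, 10.4% and 12.5% in the same order, and median GC content was 58.8% in the channel promoters and 52.4% in all. A match is only a match of letters.

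Glutamate alone was compared with control to see which transcripts a brief pulse moves. By edgeR, 0 of the 76 tested channel genes rose and 0 fell, where 0.0208% of all tested genes passed. The smallest adjusted p among them was 0.914 (Kcnj16). At an unadjusted p under 0.05 stood 4 channel genes, 5.26%, beside 4.98% of all tested genes. Of these 2 were higher and 2 lower, beside 3.1% and 1.87% of all genes, and DESeq2 and limma-voom also called 0. The count turned on single libraries: it was 15 (19.7%, beside 10.5% of all genes) without glutamate replicate 5 and 9 (11.7%, beside 7.46%) without glutamate replicate 4. It was 2 without glutamate replicate 1 (2.56%, beside 4.265%) or glutamate replicate 3 (2.6%, beside 3.29%). The fold change was above 0 for 30 of 76 (39.5%, beside 48.9% of all genes), and the median log2 fold change was -0.02 (all genes 0.00). Within 1.25-fold lay 75 of 76 (98.7%, beside 95.4% of all genes). The gene outside that limit was Kcnj2. The groups did not overlap for 0 channel genes, beside 0.985% of all tested genes.

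Kcnj2 had 13.6, 8.56, 12.1, 9.42 and 7.01 CPM in glutamate libraries, against 8.67, 7.55, 6.33, 8.13 and 8.91 CPM in control libraries. Glutamate replicates 1, 3 and 4 stood above every control library and the groups overlapped. Its log2 fold change was 0.35 ± 0.15 (SE; edgeR adjusted p = 0.95), and 0.23 without glutamate replicate 1. Kcnj16 had 6.84, 6.77, 5.29, 6.07 and 4.13 CPM with glutamate, against 7.98, 6.58, 6.54, 6.93 and 8.29 CPM in control. Of the glutamate libraries 3 lay below every control library, and the log2 fold change was -0.32 ± 0.11 (edgeR adjusted p = 0.914). It was -0.21 without glutamate replicate 5. Kcnj12 was at 5.63 CPM with glutamate and 4.92 CPM in control (log2 fold change 0.195 ± 0.08, edgeR adjusted p = 0.95). Kcnd3 and Kcnq3 had log2 fold changes of 0.01 ± 0.06 and -0.01 ± 0.17.

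**Figure D2:**
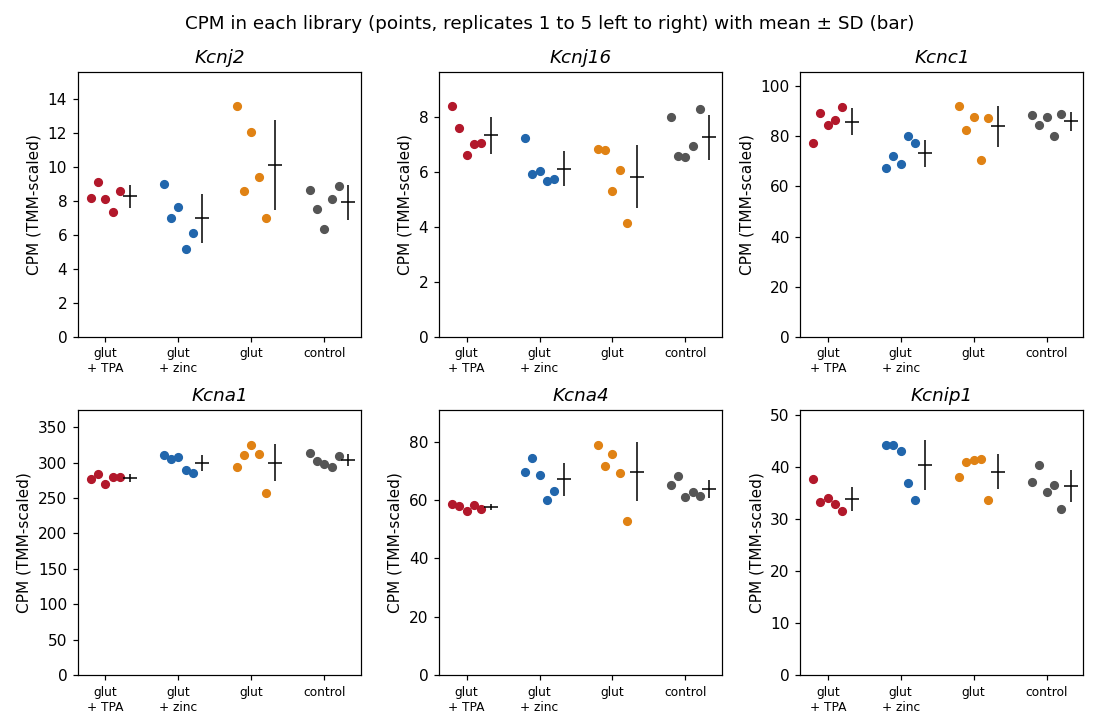
CPM of 6 channel genes in each library (points, replicates 1 to 5 left to right) with mean ± SD, for TPA, zinc, glutamate and control. Glutamate replicates 1 and 3 are the highest for Kcnj2 (13.6 and 12.1 CPM), and the 5 TPA libraries of Kcna4 sit together at 56.3 to 58.6 CPM.

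With zinc added to glutamate, against glutamate alone, 0 of 76 channel genes rose and 0 fell by edgeR, and 0% of all tested genes passed. The 5 channel genes at an unadjusted p under 0.05 (6.58%, beside 5.98% of all genes) were all lower with zinc, where 3.3% of all genes were lower and 2.69% higher. Without glutamate replicate 4 the count was 13 (16.9%, beside 9.29% of all genes), without glutamate replicate 5 it was 9 (11.8%, beside 7.02%) and without glutamate replicate 3 it was 3 (3.9%, beside 4.89%). The median log2 fold change was -0.04 (all genes 0.00), with 24 of 76 above 0 (31.6%, beside 50.3%), and the groups did not overlap for 0 channel genes, beside 0.701% of all genes. DESeq2 and limma-voom called 0 as well.

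Kcnj2 had 8.98, 6.97, 7.62, 5.18 and 6.12 CPM with zinc, against 13.6, 8.56, 12.1, 9.42 and 7.01 CPM with glutamate. The groups overlapped, and 3 zinc libraries lay below every glutamate library. The log2 fold change of -0.53 ± 0.155 was the largest in size among the 76 and had the smallest p (edgeR adjusted p = 0.634). It ran from -0.64 without glutamate replicate 5 to -0.41 without glutamate replicate 1. The glutamate libraries are those set against control above, so the Kcnj2 values of these comparisons are not independent. Kcnc1 averaged 73.15 CPM with zinc and 83.97 CPM with glutamate (log2 fold change -0.20 ± 0.06, edgeR adjusted p = 0.736), and Kcnh1 31.8 CPM with zinc and 34.0 CPM with glutamate (-0.10 ± 0.04, adjusted p = 0.758).

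With TPA against glutamate alone, again 0 of 76 rose and 0 fell by edgeR (0% of all tested genes passed). Here 4 channel genes were higher and 3 lower at an unadjusted p under 0.05, 9.21%, beside 7.15% of all genes (3.14% higher and 4% lower). Without glutamate replicate 5 the count was 15 (19.7%, beside 14.9% of all genes). The groups did not overlap for 0 channel genes, beside 1.03% of all genes. The median log2 fold change was 0.015 (all genes 0.00), with 40 of 76 above 0 (52.6%, beside 51.3%). The median was below 0 without TPA replicate 3, glutamate replicate 3 or glutamate replicate 4 (-0.02 at the lowest). DESeq2 and limma-voom called 0. The lower genes included Kcna4, with 58.6, 58.05, 56.3, 58.2 and 56.9 CPM with TPA, against 79.05, 71.7, 75.8, 69.4 and 52.8 CPM with glutamate. Glutamate replicate 5 lay below every TPA library and the other 4 above them all. The log2 fold change was -0.275 ± 0.08 (edgeR adjusted p = 0.516), and without glutamate replicate 5 Kcna4 passed, at -0.36 (adjusted p = 0.0147). Kcnj16 averaged 7.33 CPM with TPA and 5.82 CPM with glutamate (0.33 ± 0.11, edgeR adjusted p = 0.656), and its log2 fold change was 0.23 without glutamate replicate 5. Its glutamate libraries are those set against control above, so the Kcnj16 values of these comparisons are not independent. Kcnmb4 averaged 33.7 CPM with TPA and 29.4 CPM with glutamate (0.20 ± 0.07, adjusted p = 0.656), and its exons overlap those of 2 antisense genes.

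TPA was then set against added zinc, both with glutamate. These groups differ not in zinc alone, since only the TPA group had the chelator itself and 1 min in it before glutamate. By edgeR 0 of 76 channel genes rose and 0 fell, where 0.513% of all tested genes passed (0.354% higher and 0.16% lower). At an unadjusted p under 0.05 stood 19 channel genes, 14 higher and 5 lower with TPA, which is 25.0% of those tested beside 16% of all tested genes (8.36% higher and 7.68% lower). Without zinc replicate 2 the count was 12 (15.6%, beside 12.4% of all genes). With each other library left out in turn it was at most 22. That was without zinc replicate 4 (28.6%, beside 22.5%) or glutamate replicate 5 (28.95%, beside 17.4%). The median log2 fold change was 0.05 (all genes 0.00), and 0.03 to 0.09 with each library left out. Above 0 were 53 of 76 (69.7%, beside 49.7%), and within 1.25-fold lay 70 of 76 (92.1%, beside 93.7% of all genes). DESeq2 called Kcnc1 higher (adjusted p = 0.0252) and Kcnip1 lower (adjusted p = 0.0492), where 456 of all 20204 genes passed. Limma-voom called 0 channel genes, where 63 of all 14411 genes passed.

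**Figure D3:**
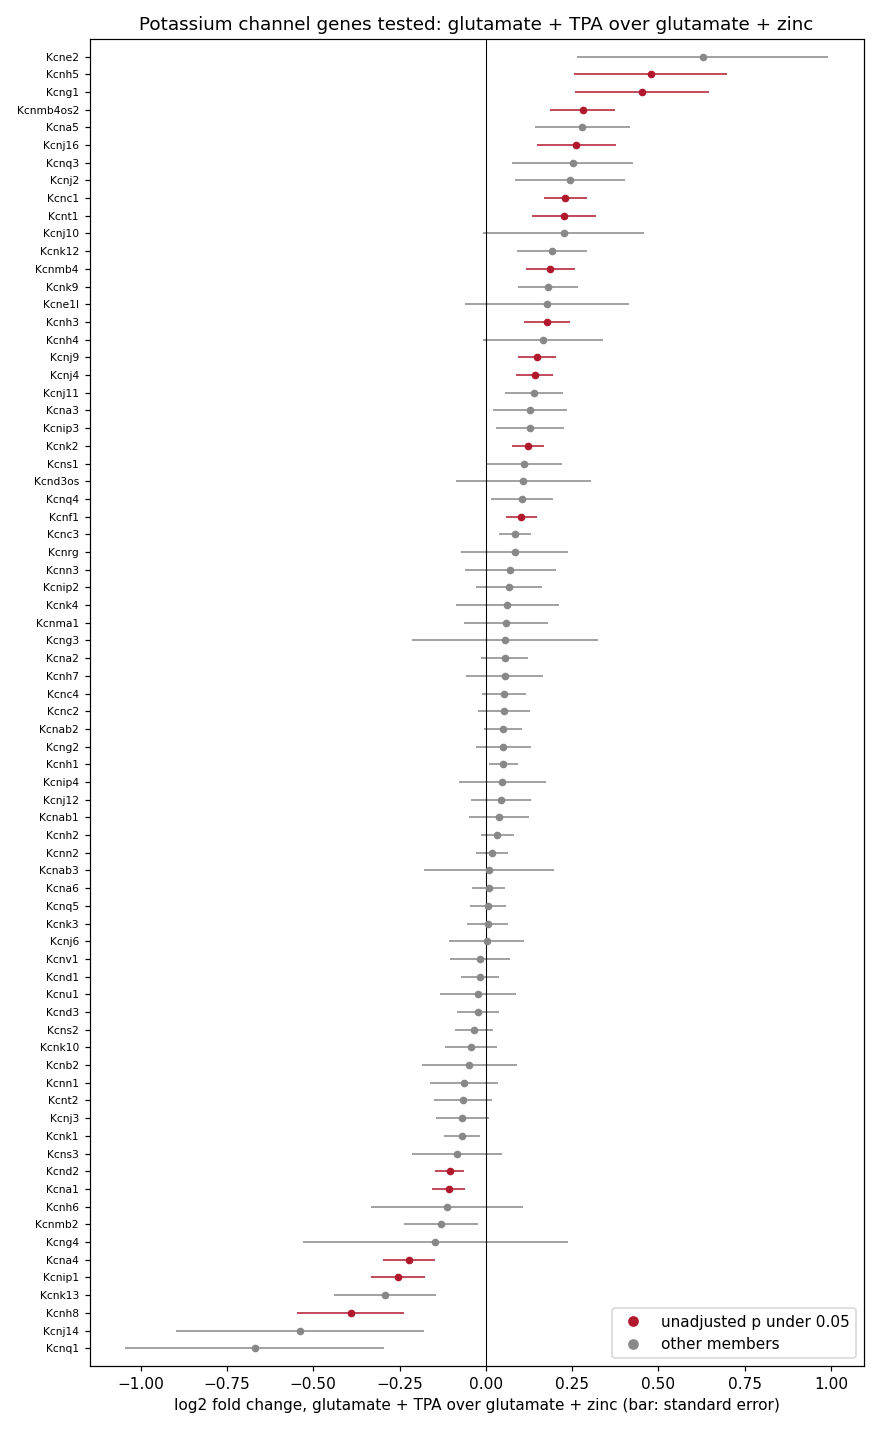
Log2 fold change of TPA over zinc for 74 of the 76 tested channel genes, ordered by size, with the standard error as a bar. The 17 genes drawn in red stood at an unadjusted p under 0.05, 12 of them to the right of 0, and the widest bars belong to genes of low count such as Kcnq1 and Kcne2.

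Kcnc1 had 77.2, 89.3, 84.6, 86.4 and 91.5 CPM with TPA, against 67.2, 72.1, 69.1, 79.9 and 77.5 CPM with zinc. TPA replicate 1 lay inside the zinc range and the other 4 TPA libraries above it. The log2 fold change was 0.23 ± 0.06, with the smallest p among the channel genes (edgeR adjusted p = 0.0779). The call turned on single libraries, since Kcnc1 passed without TPA replicate 1 (edgeR adjusted p = 0.0417), without zinc replicate 4 (adjusted p = 0.0188) and without glutamate replicate 4 (adjusted p = 0.0355). Over all genes 74 passed with every library, and 5 to 899 with 1 left out, 899 being without zinc replicate 4. The gene lies at chr7:46396468-46438704 on the plus strand of mm10. In the authors' deposited table, which gives zinc over TPA, Kcnc1 was at a shrunken log2 fold change of -0.175 with an adjusted p of 0.0255 and Kcnip1 at 0.17 with an adjusted p of 0.0497. The authors' deposited table gave 67 of the 97 channel genes an adjusted p, and these were the only 2 under 0.05. Over all genes that table had 456 under 0.05.

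Kcnip1 had 37.7, 33.3, 34.05, 32.8 and 31.6 CPM with TPA, against 44.2, 44.25, 43.0, 36.9 and 33.6 CPM with zinc. Zinc replicates 4 and 5 lay within the TPA range. Its log2 fold change was -0.25 ± 0.08 (edgeR adjusted p = 0.108). Kcnip1 passed without zinc replicate 4 (edgeR adjusted p = 0.0423, where 899 of all genes passed) and without zinc replicate 5 (adjusted p = 0.0374). Kcna4, at the TPA values above, had 69.65, 74.6, 68.7, 60.01 and 63.2 CPM with zinc, every zinc library above every TPA library. The log2 fold change was -0.22 ± 0.08 (edgeR adjusted p = 0.15), and Kcna4 passed without glutamate replicate 5. Kcna1 had 276.5, 284, 269.6, 279.7 and 280.3 CPM with TPA, against 311, 305, 307, 289 and 285 CPM with zinc. These groups did not overlap either, with a log2 fold change of -0.11 ± 0.05 (edgeR adjusted p = 0.254). Kcna4 and Kcna1 were the 2 of 76 channel genes whose groups did not overlap, beside 3.13% of all tested genes.

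By role, 8 of 10 inward rectifier genes had a fold change above 0 (median log2 0.14), as had 4 of 5 Kv7 genes (0.105), 10 of 12 accessory genes (0.06), 6 of 8 EAG genes (0.05), 5 of 9 Kv2 to Kv4 genes (0.05), 5 of 9 modifier genes (0.05), 5 of 8 tandem-pore genes (0.03), 4 of 6 Kv1 genes (0.03) and 4 of 7 calcium- or sodium-gated genes (0.02), beside 49.7% of all genes. The 14 higher genes at an unadjusted p under 0.05 included Kcnh3, at 89.6 CPM with TPA and 79.2 CPM with zinc (log2 fold change 0.18 ± 0.07, exons shared with Mcrs1). They also included Kcnt1, at 24.5 CPM with TPA and 20.98 CPM with zinc (0.23 ± 0.09), Kcnj4, at 132 CPM with TPA and 119.6 CPM with zinc (0.14 ± 0.05), Kcnmb4 (0.19 ± 0.07), Kcnk2 (0.12 ± 0.05), Kcnf1 (0.10 ± 0.04), Kcnj16 (0.26 ± 0.11) and Kcng1 (0.45 ± 0.19). Without zinc replicate 4, Kcnmb4 and Kcnh3 also passed, where 899 of all genes did. Kcnd2 was lower, at 127.5 CPM with TPA and 137 CPM with zinc (-0.10 ± 0.04), and its relative Kcnd3 was at 159.7 CPM with TPA and 162 CPM with zinc (-0.02 ± 0.06).

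Transcript GC content was set beside the fold changes, and its part in the difference was not tested. Across all 13880 tested genes with a transcript GC content, the log2 fold change of TPA over zinc had a Spearman rho of 0.32 with GC, and across the 76 channel genes 0.25 (Pearson 0.24 and 0.08). All points come from the same 10 libraries, and genes are not independent replicates. Channel transcripts had a median GC content of 54%, against 50.9% for all tested genes. The 38 channel genes of higher GC had a median log2 fold change of 0.11 with 31 above 0, and the 38 of lower GC 0.01 with 22 above 0. Over all tested genes, of any GC, 49.7% were above 0. Among the 38 of lower GC, Kcnj16 (43.2% GC) was at 0.26, Kcnj2 (41.2% GC) at 0.24 and Kcnip1 (49.7% GC) at -0.25. With a within-library offset on GC, an alternative chosen after the data were seen, 8 of 13880 genes passed in place of 74 of 14411. There 49 of 76 channel genes were above 0, with a median of 0.04. In the same fit Kcnc1 was at 0.20 (edgeR adjusted p = 0.179) and Kcnip1 at -0.25 (adjusted p = 0.156).

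**Figure D4:**
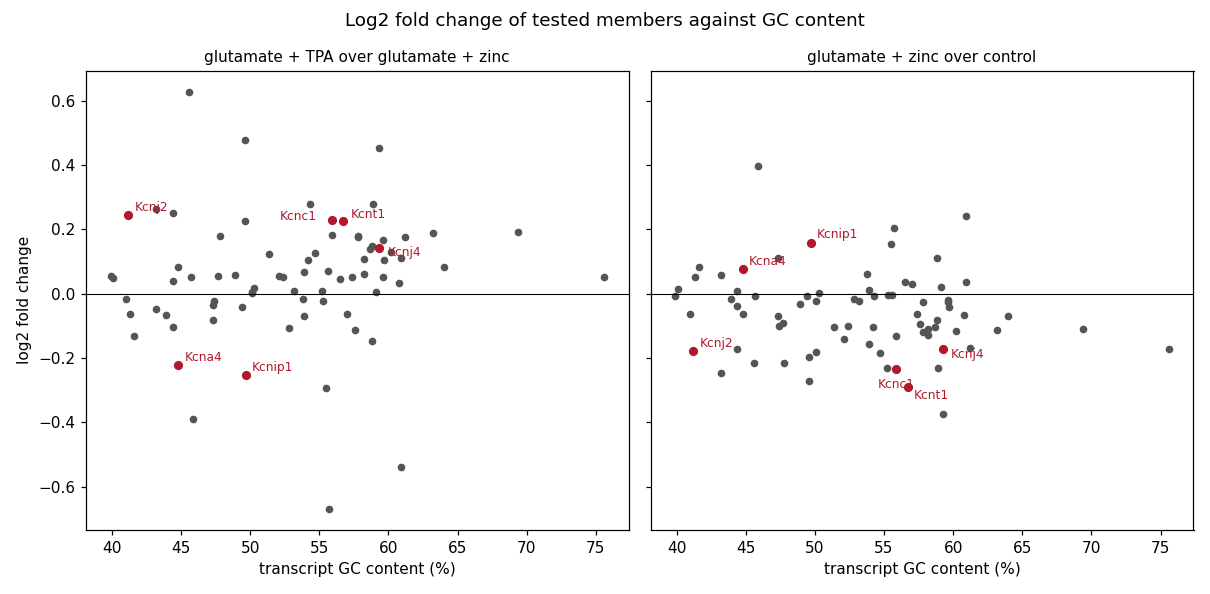
Log2 fold change against transcript GC content (%) for the 76 tested channel genes, with TPA over zinc on the left and zinc over control on the right, and 6 named genes in red. On the left Kcnc1, Kcnj4 and Kcnt1 lie at 55.9% GC or more and above 0, and Kcna4 and Kcnip1 at 49.7% or less and below 0, while Kcnj2 lies at 41.2% and above 0.

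Zinc with glutamate was also set against control. By edgeR 0 of 76 rose and 0 fell, where 0.0416% of all tested genes passed. At an unadjusted p under 0.05 stood 13 channel genes, 12 lower and 1 higher with zinc, 17.1% beside 11.1% of all genes (5.7% lower and 5.35% higher). The count was 7 without zinc replicate 2 (9.09%, beside 7.82% of all genes) and 7 without control replicate 5 (9.09%, beside 8.03%), and at most 17, without zinc replicate 4 (22.1%, beside 16.9%). The median log2 fold change was -0.065 (all genes 0.00), with 20 of 76 above 0 (26.3%, beside 50.7%), and DESeq2 and limma-voom called 0. This comparison shares its zinc libraries with the preceding ones, so its values are not independent of theirs.

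Kcnc1 had the zinc values above, against 88.35, 84.6, 87.7, 80.03 and 89.0 CPM in control. Every zinc library lay below every control library, and the log2 fold change was -0.23 ± 0.06 (edgeR adjusted p = 0.198). Kcnt1 had 19.8, 18.4, 19.7, 23.05 and 24.03 CPM with zinc, against 24.04, 23.3, 27.5, 25.5 and 27.9 CPM in control (log2 fold change -0.29 ± 0.09, edgeR adjusted p = 0.282). Only zinc replicate 5 reached into the control range. Kcnj4 had 129, 121, 118, 123 and 107 CPM with zinc, against 140.5, 132, 134, 126 and 143 CPM in control (log2 fold change -0.17 ± 0.05, edgeR adjusted p = 0.282). Zinc replicate 1 lay within the control range and the other 4 below it. The groups did not overlap for 3 of 76 channel genes (beside 2.66% of all genes), namely Kcnc1, Kcnh1 at 31.8 CPM with zinc and 34.1 CPM in control, and Kcnh8 at 1.7 CPM with zinc and 1.295 CPM in control. Kcnh8 is named because its groups did not overlap, which was seen in the data.

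TPA against control gave channel counts near the background. By edgeR 0 of 76 rose and 0 fell (0.0694% of all genes passed), 2 stood at an unadjusted p under 0.05, both lower (2.63%, beside 3.09% of all genes, 1.3% lower and 1.8% higher), and DESeq2 and limma-voom called 0. The median log2 fold change was 0.00, with 37 of 76 above 0 (48.7%, beside 49.3%). Kcna1 had the TPA values above, against 314, 302, 297, 294 and 309 CPM in control, and Kcna4 65.3, 68.2, 61.2, 62.8 and 61.5 CPM in control. Both were lower in every TPA library than in any control library, and for these 2 of 76 channel genes the groups did not overlap, beside 1.33% of all tested genes. The log2 fold change of Kcna1 was -0.13 ± 0.05 (edgeR adjusted p = 1). Kcnd2 averaged 127.5 CPM with TPA and 136 CPM in control (-0.095 ± 0.04), and Kcna5 2.14 CPM with TPA and 1.78 CPM in control (0.27 ± 0.14; 0.17 without control replicate 4). With each library left out in turn, 1 to 3 channel genes stood at an unadjusted p under 0.05 (1.28% to 3.95%, beside 2.53% to 3.63% of all genes).

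The mean of the 3 stimulated groups against control likewise gave 0 rises and 0 falls by edgeR (0.0486% of all genes passed), with 3 channel genes at an unadjusted p under 0.05, 3.95% beside 4.45% of all genes (2.21% lower and 2.24% higher), and DESeq2 and limma-voom called 0. These were Kcnt1 (log2 fold change -0.19 ± 0.07), Kcng2 (-0.14 ± 0.06) and Kcnj4 (-0.09 ± 0.04), all lower after stimulation, each with an edgeR adjusted p of 1. Without control replicate 5 the count at an unadjusted p under 0.05 was 0 (beside 2.85% of all genes). Without glutamate replicate 3 it was 1 (1.3%, beside 3.95%). It was 5 without zinc replicate 4 (6.49%, beside 5.77%), glutamate replicate 4 (6.49%, beside 5.32%) or glutamate replicate 5 (6.58%, beside 6.1%). The fold change was above 0 for 24 of 76 (31.6%, beside 49.6%), and all 76 lay within 1.25-fold of control (100%, beside 97.3% of all genes). The groups did not overlap for 0 channel genes, beside 0.0416% of all genes.

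Taken library by library, the median log2 deviation of the 76 channel genes from their 20-library mean was -0.079, 0.044, 0.001, 0.046 and 0.08 with TPA, -0.084, -0.08, -0.065, -0.004 and 0.026 with zinc, 0.054, -0.03, 0.019, -0.082 and 0.031 with glutamate, and 0.044, 0.012, 0.04, 0.025 and 0.036 in control. Zinc replicates 1 to 3, TPA replicate 1 and glutamate replicate 4 lay below -0.06, and the 5 control libraries sat close together. Group means were 0.02 ± 0.06 with TPA, -0.04 ± 0.05 with zinc, 0.00 ± 0.05 with glutamate and 0.03 ± 0.01 in control (SD, n = 5 each). Among the 3 stimulated groups the means farthest apart were those of TPA and zinc, and the SD within each group was close to that distance. Over all 4 groups the means farthest apart were those of control and zinc, and control had the smallest SD.

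**Figure D5:**
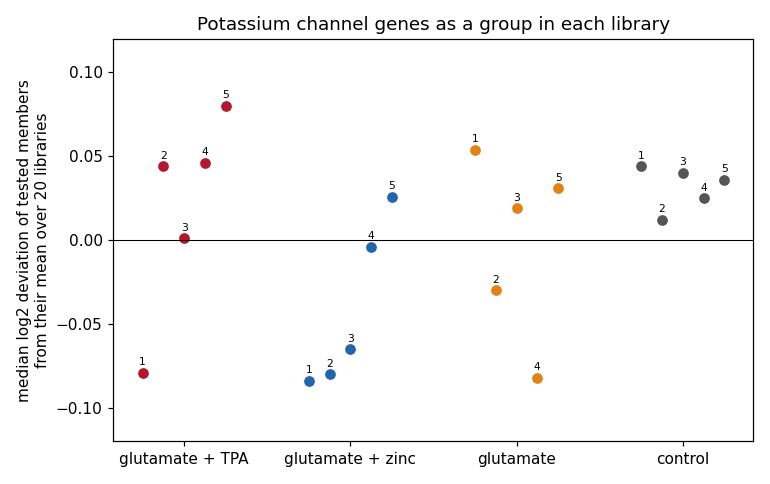
Median log2 deviation of the 76 tested channel genes from their mean over 20 libraries, per library, with replicate numbers beside the points. Control libraries lie between 0.012 and 0.044, and each stimulated group has libraries on both sides of 0.

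Partner genes were counted from a list of proteins that bind or tune these channels or move potassium. Of 37 genes 34 were tested, and 0 rose and 0 fell in any of the 7 comparisons by edgeR. For TPA against zinc, 7 stood at an unadjusted p under 0.05, 20.6% beside 16% of all genes, with 4 higher. The smallest adjusted p was that of Abcc8, the sulfonylurea receptor that pairs with the Kcnj11 pore, at 18.5 CPM with TPA and 14.6 CPM with zinc (log2 fold change 0.34 ± 0.09, edgeR adjusted p = 0.0692). Slc12a5, the chloride extruder of mature neurons, was at 293 CPM with TPA and 269 CPM with zinc (0.125 ± 0.05, adjusted p = 0.254).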

How the data were processed

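Hippocampal cultures were grouped by the treatment in the labels (4 groups of 5), and the libraries were of stranded polyadenylated RNA, per the labels' protocols. The submitters' processing notes list HISAT2 2.1.0 and Trimmomatic 0.36, with featureCounts and SAMtools 1.3.1, DESeq2 1.14.1 in R 3.3.0, and the build mm10. Whether counting used strand is not stated in them. For the 11 channel genes that share exon bases with another gene, 10 of them tested, how reads in those bases were assigned is therefore not known. Their levels may be affected.

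The authors deposited whole-number counts for 24419 genes, which alone entered tests, and TPM derived from them, used for levels between genes. The authors' comparison tables, deposited by them from DESeq2, were only quoted. Those deposited tables hold for each gene a mean normalized signal, a log2 fold change shrunken toward 0, a Wald score, a p-value and its adjusted form.

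Here edgeR 4.0.16 (R 4.3.3) kept 14411 genes by its default filter, scaled by TMM (factors 0.972 to 1.03) and fitted all 20 libraries with group means and robust quasi-likelihood. The 7 contrasts were adjusted by Benjamini-Hochberg over all kept genes at a threshold of 0.05, and "rose" and "fell" mean past it. CPM is TMM-scaled. The filter was rerun with each library left out, which tested 76 to 78 channel genes. Alternatives used DESeq2 1.42.0, limma 3.58.1 and other scalings, filters and libraries.

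Members, lists and tests were chosen with earlier results of these data known, so medians and counts are descriptions. Genes named are those past the threshold, the 3 smallest p-values of each contrast, the highest control TPM of each subfamily letter and a fixed set of hippocampal channel genes. Kcna6, Kcnh8, Kcnj9, Kcnj11 and genes at the end of a range were named after their values were seen. Values of 3 genes that the naming rules reached are not reported here. A search of member proteins for the selectivity filter was not run.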

Additional observations from a re-analysis of the deposited data

Results flagged for a closer look

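In 40 named channel genes and 4 groups, 160 sets of 5 libraries were searched for a library far from the other 4, by its gap to the nearest divided by the whole range. Chance gives about 1 in 20 such sets, here 8, and 4 were found. Kcnj16 was highest in zinc replicate 1 at 7.21 CPM, with the next zinc library at 6.01 and the lowest at 5.68 CPM. Kcnh1 was highest in zinc replicate 4 at 33.6 CPM, with the next zinc library at 31.6 and the lowest at 31.1 CPM. Kcnj12 was lowest in glutamate replicate 2 at 4.91 CPM, with the next glutamate library at 5.69 and the highest at 6 CPM. Kcns2 was highest in control replicate 2 at 25.3 CPM, with the next control library at 23.5 and the lowest at 23.2 CPM.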

How the results depend on the processing

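The tests as reported called 0 channel genes in all 7 comparisons, and the settings below called some. For TPA against zinc, a gene length offset gave 2 rises (Kcnc1 among them), where 192 of all 14411 genes passed. DESeq2 gave 1 rise (Kcnc1) and 1 fall (Kcnip1), where 456 of all 20204 genes passed. Limma-voom with library weights gave 19 rises and 4 falls, where 3131 of all 14411 genes passed. Leaving out the 3 libraries farthest from their group means (glutamate 4 and 5, zinc 5) gave 8 rises and 3 falls. There 1149 of all 14550 genes passed. Leaving out each library in turn gave 0 to 4 rises and 0 to 1 falls for TPA against zinc, where 5 to 899 of all genes passed. There were 4 rises without zinc 4 (899 of all genes), 2 without TPA 1 and 1 without glutamate 4. There was 1 fall without zinc 4 or 5 (Kcnip1) or glutamate 5 (Kcna4). For TPA against glutamate, leaving out each library gave 0 to 1 falls (Kcna4, without glutamate 5, where 2 of all genes passed). For TPA against glutamate, library weights gave 2 rises and 2 falls (484 of all genes passed). Leaving out the 3 libraries gave 2 rises and 4 falls (551 of all genes). For zinc against control, the length offset gave 1 fall (Kcnc1), where 10 of all genes passed. Library weights gave 1 rise (Kcnip1) and 14 falls, where 1825 of all genes passed. Leaving out the 3 libraries gave 2 falls (Kcnt1, Kcnc1), where 231 of all genes passed. For zinc against glutamate, library weights gave 2 falls (Kcnc1 among them), where 107 of all genes passed. For glutamate against control, leaving out the 3 libraries gave 1 rise (Kcna4) and 1 fall (Kcnt1), where 100 of all genes passed. The causes were not tested. DESeq2 size factors, library size alone, limma-voom without weights, other filters, fits of 2 groups and the GC offset called 0 channel genes. The 3-group mean against control has no fit of 2 groups and was not run that way.

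The replicate numbers were not taken to pair the libraries, since the labels give them no shared batch and correlations of same-numbered libraries ran from -0.07 to 0.5. They were above 0 throughout for numbers 2 and 5, and 9 of 20 libraries correlated best, outside their own group, with their own number, a hint of pairing from the data and not the design. In each other group, 1 of the 5 libraries shares a given library's number. With the replicate block, TPA against zinc gave 1 rise (Kcnt1) and 1 fall (Kcnip1), where 422 of all genes passed. Zinc against control gave 1 fall (Kcnt1), where 39 of all genes passed.

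Over all genes the count past the threshold for TPA against zinc was 74 as reported, 456 by DESeq2, 422 with the block, 192 with the length offset, 37 by library size alone, 41 with no filter, 6 with the 2 groups alone, 8 with the GC offset, 3131 with library weights, 1149 without the 3 libraries and 5 (zinc 3) to 899 (zinc 4) with each library left out. For zinc against control it was 6 as reported, 64 by DESeq2, 39 with the block, 1825 with weights, 231 without the 3 libraries and 3 (zinc 3 or control 1) to 100 (zinc 4) with each library left out. For TPA against glutamate it was 0 as reported, 484 with weights and 551 without the 3 libraries. For zinc against glutamate it was 0 as reported and 107 with weights. For glutamate against control it was 3 as reported, 12 by DESeq2, 59 with weights and 100 without the 3 libraries. For the median channel gene the within-group coefficient of variation was 10.6%.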
